A study of Mus musculus with 7 samples.

Results

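The respiratory chain complex genes are the nuclear genes that encode the subunits of complexes I to V of the mitochondrial inner membrane, together with the complex I assembly factors that carry the Ndufaf name. Members were the protein-coding nuclear genes of GENCODE M21 (mm10) whose symbol begins with Nduf, Uqcr, Atp5 or Cox4 to Cox8, or is Sdha, Sdhb, Sdhc or Sdhd. The rule uses names alone and no measured value. It gave 94 gene records with 93 symbols (Atp5o has 2 records) of 21938 protein-coding nuclear genes. Of these, 36 are complex I subunits, 8 are complex I assembly factors, 4 belong to complex II, 8 to complex III, 18 to complex IV and 18 to complex V. The remaining 2, Ndufa4 and its paralogue Ndufa4l2, carry complex I names but Ndufa4 is now counted with complex IV, and they were kept apart.

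Electrons from NADH enter the chain at complex I (NADH dehydrogenase) and electrons from succinate at complex II (succinate dehydrogenase). They pass through complex III (the cytochrome bc1 complex) and cytochrome c to complex IV (cytochrome c oxidase), and complex V (ATP synthase) uses the proton gradient that complexes I, III and IV build. Several complex IV subunits exist as a broadly expressed form and a form restricted to heart and skeletal muscle, lung or testis, and the promoters of the broadly expressed genes are known for sites of NRF1, of the ETS factor GABP and of ERR-alpha.

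Open-chromatin regions (OCRs) were measured by bulk ATAC-seq, in which the Tn5 transposase cuts accessible DNA, in HPC7, a mouse hematopoietic progenitor cell line kept in stem cell factor. All 7 libraries (HPC7-1, HPC7-2 and HPC7-4 to HPC7-8) belong to 1 condition and came from independent culture batches of 1 line, so the comparisons are between genes within a library and not between treatments. Peak names carry the prefix VD for HPC7-1, HPC7-2 and HPC7-4, while the 4 remaining libraries carry EtOH. No sample label explains the prefixes, so no comparison was made between them, and they serve only to count libraries beside the tested pairs.

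The lists held between 84593 (HPC7-6) and 132852 OCRs (HPC7-1), and the background recovered from the fold enrichments lay between 4.44 reads (HPC7-2) and 20.4 reads (HPC7-1) at a summit. The weakest listed peak had 12 to 35 reads at its summit and a fold enrichment of 1.68 to 2.44, depending on the library, so a promoter without an OCR may still hold accessibility at about that level. Of the hematopoietic markers Kit, Ptprc, Tal1, Gata2, Runx1, Lmo2, Spi1 and Cd34, 7 had a promoter OCR in all 7 libraries. The exception was Gata2, whose other transcript starts had one. Of 5 striated muscle markers 1 was open (Ckm, with the start of Klc3 672 bp away), and of 3 lung, 4 testis and 1 brown fat markers none was open in all 7 libraries.

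The promoters of the respiratory chain genes were open far more often than those of other genes, but the median intensity of the open promoters differed little from that of other genes. A promoter OCR is a peak that overlaps the 1 kb on either side of the 5′ end of the gene record. Its intensity is the highest fold enrichment among such peaks. Fold enrichment is the reads at the summit divided by the background of the library, with 1 added to each. In all 7 libraries 87 of 94 members (92.6%) had a promoter OCR, where 51.6% of all protein-coding nuclear genes did. In no library was one found for 5 members (5.32%), against 42.9% of all genes. The share of members with a promoter OCR was 93.3% ± 0.804 (SD, n = 7) and lay between 92.6% and 94.7%, and that of all genes was 54.0% ± 1.14. The lowest share of the members was above the highest share of all genes, 56.1%. Among promoters with an OCR, the median fold enrichment of the members was 77.9 ± 14.2 and that of all genes 76.8 ± 13.0 (SD, n = 7). Within a library the members' median minus that of all genes was 1.11 ± 1.74, with a lowest difference of -1.84 (HPC7-2) and a highest of 3.79 (HPC7-1).

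Ranked among all protein-coding nuclear genes, with a promoter lacking an OCR set to 0, the median member stood at percentile 72.1 ± 0.607 (SD, n = 7). In the top 25% of promoters in all 7 libraries were 27 members (28.7%), beside 21.2% of all genes. Among promoters open in all 7 libraries the order turned, with 27 of 87 members and 4657 of 11327 genes, a lower share of the members. The 27 members were 10 complex I subunits, 3 assembly factors, 1 gene each of complexes II and III, 4 of complex IV and 8 of complex V. Other gene groups of the mitochondrion and of protein turnover were open about as often. All 39 assembly factors outside the rule were open in all 7 libraries, with a higher median percentile than the members, 77.7 ± 1.09, and 43.6% of them in the top 25%. Open in all 7 libraries were also 76 of 78 genes of mitochondrial ribosomal proteins, at 71.5 ± 1.00, and 35 of 40 proteasome genes, at 71.1 ± 0.498. These shares were not tested against each other, because genes are not replicates.

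**Figure D1:**
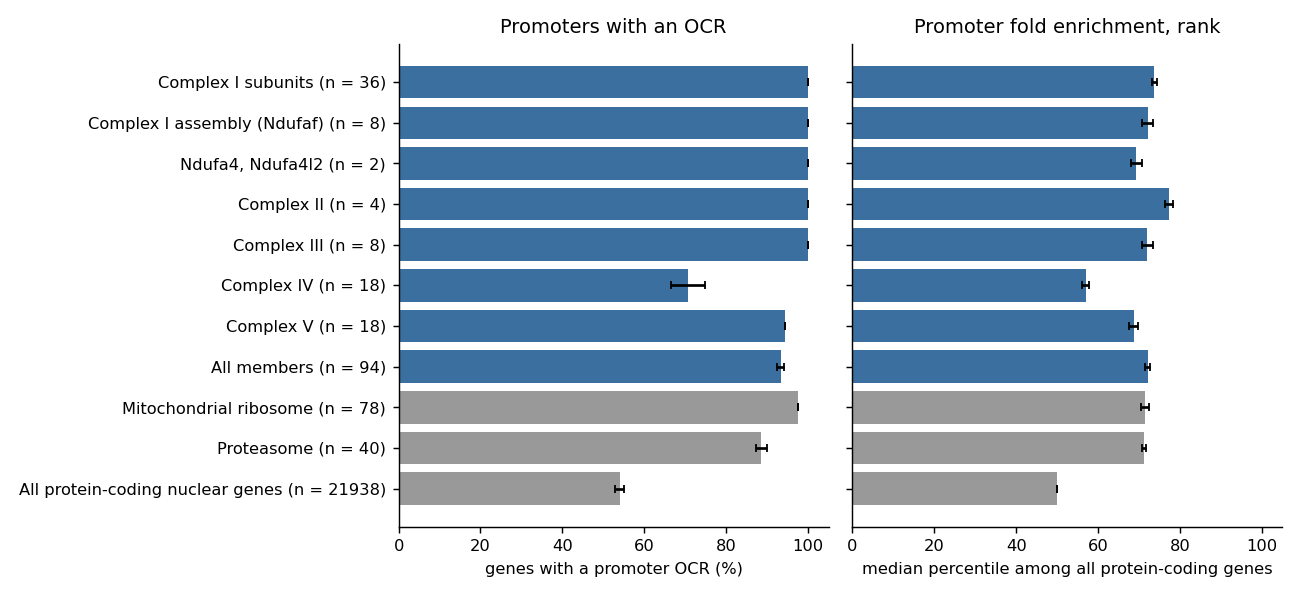
Left, percentage of genes with a promoter OCR. Right, median percentile of promoter fold enrichment among all protein-coding nuclear genes. Bars are means of 7 libraries with SD, blue for the respiratory chain genes by complex and grey for other gene groups. Complexes I, II and III stand at 100%, complex IV at 70.6% and all genes at 54.0%.

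Relative to their library, the members varied little. After division by the median open promoter of the library, the SD of log2 fold enrichment over the 7 libraries was 0.13 for the median member and 0.13 for the median of all 11327 open genes. Before that division the level followed the library. The fold enrichment was lowest in HPC7-6 for 83 of 87 open members, and highest in HPC7-5 for 47 and in HPC7-1 for 27. The median open promoter of all genes was likewise lowest in HPC7-6 (55.5) and highest in HPC7-5 (92.6), followed by HPC7-1 (89.1). Differences of level between libraries are therefore shared by the members, and the values below are compared within libraries.

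**Figure D2:**
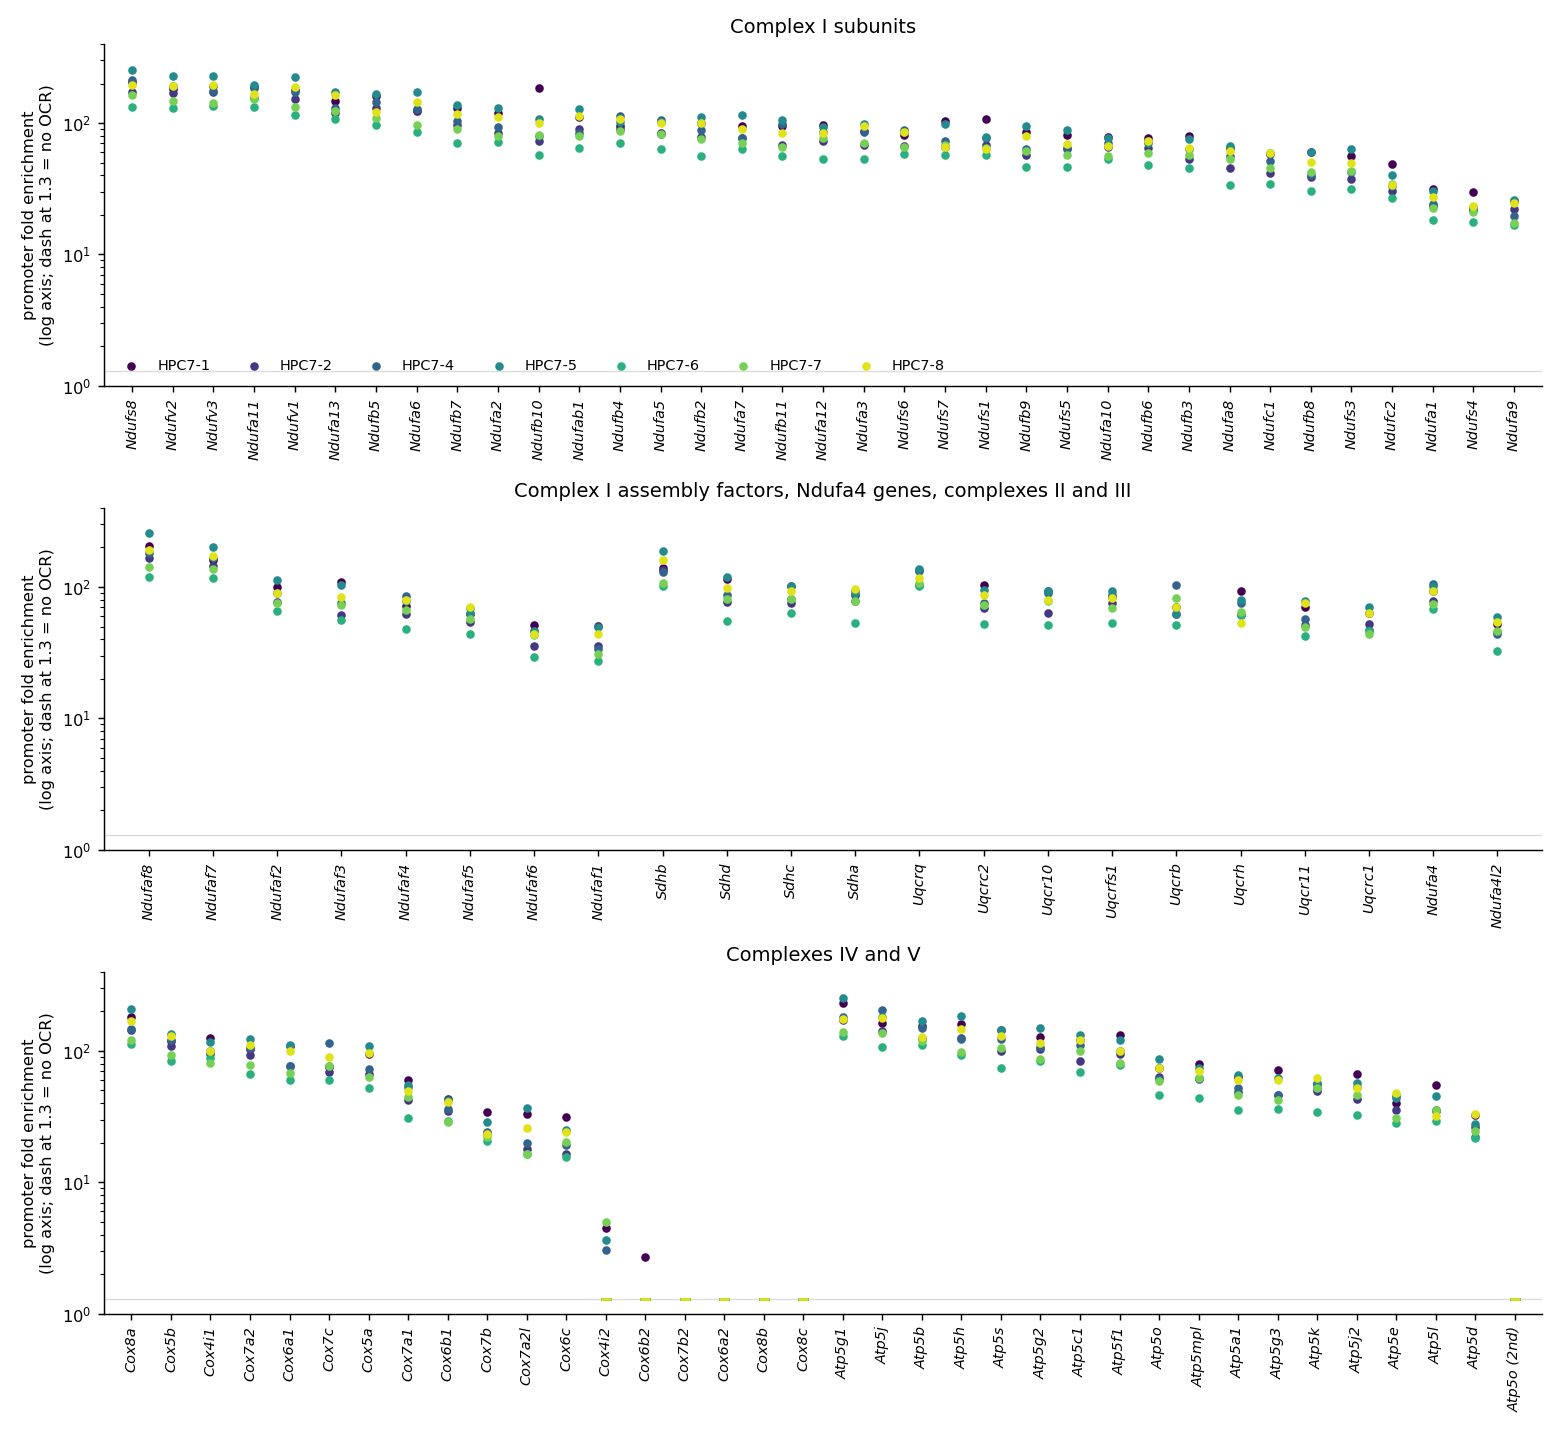
Promoter fold enrichment (log axis) of the gene records (1 of 94 is not drawn), ordered by mean within each complex, with 1 point for each of 7 libraries. A dash at 1.3 marks a library without a promoter OCR. Complex IV alone has a tail of 6 genes with few or no points, and complex V has 1 such record, Atp5o (2nd).

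Promoter sequences from RefSeq (GRCm38.p6, the build of the peak lists) were matched to 76 of the 94 members and 16839 of all genes by symbol or synonym. The 250 bases before the start were searched on both strands. The NRF1 core GCGCATGC was present in 9 member promoters (11.8%) and in 3.12% of all promoters, or 4.76% of those open in all 7 libraries. The 9 are shown, 30 bases each, 5′ to 3′ on the strand of the gene, with the matches in capitals. Where the core overlaps its own reverse complement, both are in capitals.
Ndufa11: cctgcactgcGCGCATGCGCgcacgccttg
Ndufa6: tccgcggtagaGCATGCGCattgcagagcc
Ndufa8: gcgcttgcgcgtcgctggagacGCATGCGC
Ndufaf4: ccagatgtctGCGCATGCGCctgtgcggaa
Sdhb: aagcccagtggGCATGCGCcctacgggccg
Cox6a1: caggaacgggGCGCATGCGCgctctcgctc
Atp5g2: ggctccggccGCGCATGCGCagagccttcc
Atp5k: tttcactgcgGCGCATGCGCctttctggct
Atp5l: aaccaataacGCATGCGCatttcccccact

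The match began 60 bases before the start in Ndufa11 (chr17:56717692-56717721), 54 in Sdhb (chr4:140961206-140961235), 50 in Atp5k (chr5:108434430-108434459) and 42 in Atp5g2 (chr15:102671070-102671099). In the others it began 8 (Ndufa8), 83 (Ndufa6), 113 (Ndufaf4), 162 (Cox6a1) and 240 bases (Atp5l) before the start. That of Atp5g2 belongs to a RefSeq start inside the gene record, 1305 bp from its 5′ end. The ETS motif CCGGAAGT, which GABP binds, was in 3 member promoters (3.95%) and in 3.99% of all. Among promoters open in all 7 libraries it was in 4.11% of members and 6.61% of genes. The ERR motif TCAAGGTCA was in 1 member promoter (1.32%) and in 0.315% of all. These 4 are shown in the same way, with the motif or its reverse complement in capitals, to show where the matches stand.
Atp5h: ccaaggagagaACTTCCGGcaactctcttc
Uqcr11: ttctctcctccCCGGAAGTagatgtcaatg
Uqcrh: actacgaggagtatgccgcACTTCCGGcca
Atp5g3: ttgttacaaagTGACCTTGAgcgtcttccc

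Of the other motifs, TGACGTCA (CREB) was in 4 member promoters (5.26%) and 2.07% of all, GGGCGGG (SP) in 31.6% and 32.3%, CCAAT (NF-Y) in 44.7% and 36.3%, and AAGATGGC (YY1) in 0 of 76 and 1.48% of all. Among promoters open in all 7 libraries the shares in members and in genes were 5.48% and 2.91% for CREB, 30.1% and 44.5% for SP, 43.8% and 36.5% for NF-Y, and 0% and 2.10% for YY1. These are matches of letters and not bound sites, and promoters with and without them were open. The CREB matches were in Ndufa10, Ndufa11, Ndufb2 and Uqcrfs1, so that Ndufa11 held both an NRF1 and a CREB match.

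Observed over expected CpG in the same 250 bases had a median of 0.804 in 73 members open in all 7 libraries and 0.748 in all 8997 such genes with a match. Among the paralogues, Cox8a held 11 CpGs and Cox8b 1, and Cox7a2 held 14 and Cox7a1 4. Cox7a1 was thus open with few CpGs, while Cox7b2 held 9 without an OCR, more than the 5 of the open Cox7b. Cox6b1 held 14 and Cox6b2 8. Cox4i1, Cox4i2, Cox6a2, Cox8c and Ndufa4l2 had no matched sequence, so their pairs were not ranked. Among the pairs with both sequences, Cox8a with Cox8b and Cox7a2 with Cox7a1 had the largest ratios of CpGs in the broad form to CpGs in the restricted form. Their 30 bases before the start are shown with every CpG in capitals. These are Cox8a (chr19:7217617-7217646), Cox8b (chr7:140900447-140900476), Cox7a2 (chr9:79759854-79759883) and Cox7a1 (chr7:30184141-30184170).
Cox8a: ttgtccCGaCGtcatttcCGaaatacttcc
Cox8b: gtgacaggagacagctgcagctctccaccc
Cox7a2: ggtaaggatagcttCGgaggtcCGgaggct
Cox7a1: agtgggCGtggcttgggattcccttagggt

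Among the 36 complex I subunits, whose promoters were open in all 7 libraries without exception, the mean fold enrichment ran from 21.8 to 191. The 7 core subunits that carry the flavin and iron-sulfur clusters had a median percentile of 73.0 ± 3.43 and the 29 supernumerary subunits 73.5 ± 1.29 (SD, n = 7). At the start of any transcript these values were 92.3 ± 1.21 and 71.5 ± 1.43, so that the comparison of the 2 groups depends on the start used. The most intense was Ndufs8, an iron-sulfur subunit of the arm that reduces ubiquinone (chr19:3908863-3912774, minus strand). Its fold enrichment had a lowest value of 132 (HPC7-6), a median of 194 and a highest value of 254 (HPC7-5), with a mean of 191 ± 39.3 and a summit 123 bp upstream of the start. Its percentile of 96.8 ± 0.494 was the highest of the members.

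Next came Ndufv2 and Ndufv3, subunits of the tip that oxidises NADH. Ndufv2, which holds an iron-sulfur cluster there (chr17:66078638-66101559), ranged from 131 through a median of 181 to 229. Ndufv3, a supernumerary subunit beside it (chr17:31520115-31531331), ranged from 134 through 174 to 228. The third Ndufv gene, Ndufv1, which binds NADH and flavin, had a mean of 166 ± 36.0, just under that of Ndufa11 (167). Ranked among the genes of its own chromosome, Ndufv1 stood at percentile 94.1, above Ndufv2 and Ndufv3, each at 89.0. All 3 Ndufv genes were in the top 25% of all promoters in every library, and HPC7-6 was the lowest and HPC7-5 the highest library for each. At the other end stood Ndufa9, a supernumerary subunit at the foot of the peripheral arm (chr6:126821721-126849136), with 16.9 through 22.2 to 25.9, and Ndufs4, whose loss in mice gives a Leigh-like encephalopathy (chr13:114287795-114388258), with 17.7 through 21.8 to 30.04. The values of these 2 genes overlapped each other, and their highest values lay under the lowest values of Ndufs8, Ndufv2 and Ndufv3. Between these ends, the 13 Ndufa genes (means of 21.8 to 167, the highest being Ndufa11) had a median percentile of 76.0 ± 1.15, and the 10 Ndufb genes of the membrane arm (46.3 for Ndufb8 to 132 for Ndufb5) had 74.5 ± 1.05. Of these, 4 Ndufa and 2 Ndufb genes were in the top 25% in all libraries. The Ndufc genes of the membrane arm were low, Ndufc1 at 49.9 ± 9.94 and Ndufc2 at 35.3 ± 7.14.

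Of the 8 Ndufaf assembly factors, 3 were in the top 25% in all libraries. Ndufaf8, a partner of the assembly factor Ndufaf5 (chr11:120098928-120100705), ranged from 120 through 181 to 257. Ndufaf7, a protein arginine methyltransferase (chr17:78937136-78948052), ranged from 116 through 162 to 201, and Ndufaf2, a paralogue of the subunit Ndufa12, from 66.0 through 90.05 to 114. These 3 start within 1 kb of another coding gene on the other strand, Tepsin, Cebpz and Ercc8, and share their OCR with it. The lowest were Ndufaf6, with 29.2 through 44.0 to 51.5, and Ndufaf1, which acts early in assembly of the membrane arm, with 27.2 through 35.5 to 50.6.

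The 4 subunits of complex II lay close together except Sdhb. Sdhb, the iron-sulfur subunit with an NRF1 match (chr4:140961203-140979193), ranged from 102 (HPC7-6) through a median of 135 to 188 (HPC7-5). The flavoprotein subunit Sdha (chr13:74322254-74350280) ranged from 53.2 through 86.7 to 96.7. The membrane anchors Sdhc (chr1:171127165-171150603) and Sdhd (chr9:50596357-50603812) ranged from 63.7 through 81.3 to 102 and from 55.5 through 87.3 to 118. Within each library Sdhb was the highest of the 4 genes, although its values over all libraries overlapped those of Sdhd and, at the edge, Sdhc (highest value 102.3 against a lowest of 102.2 for Sdhb).

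The 6 pairs of complex II genes and the 3 pairs of ATP synthase subunit c genes were tested as log2 ratios within a library. The test was two-sided and exact, a permutation of the signs of the 7 ratios, adjusted by Benjamini-Hochberg over 9 pairs. The smallest p this design allows is 0.0156. Sdhb was higher than Sdhc by 0.67 ± 0.19 on the log2 scale (SD, n = 7, 1.59-fold, exact adjusted p = 0.0234), and higher than Sdhd by 0.62 ± 0.22 (1.53-fold, exact adjusted p = 0.0234). Sdha had 0.602 of the fold enrichment of Sdhb, with a range of 0.471 to 0.733 over libraries (exact adjusted p = 0.0234, permutation of signs). Each of these held in 7 of 7 libraries, 3 of 3 with VD names and 4 of 4 with EtOH names. For the other 3 pairs no difference was shown. The ratio of Sdha to Sdhc lay between 0.835 and 1.15 (exact adjusted p = 0.422), that of Sdha to Sdhd between 0.750 and 1.07 (exact adjusted p = 0.321) and that of Sdhc to Sdhd between 0.865 and 1.15 (exact adjusted p = 0.334).

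The genes Atp5g1, Atp5g2 and Atp5g3 encode the same mature subunit c, the ring that turns in the membrane, with different import sequences, and their promoters differed in every library. Atp5g1 (chr11:96068852-96075670) ranged from 129 (HPC7-6) through 175 to 252 (HPC7-5). Atp5g2 (chr15:102662864-102672352) ranged from 84.0 through 107 to 148, and Atp5g3 (chr2:73908447-73911326) from 36.3 through 46.3 to 72.0. The highest value of Atp5g3 lay under the lowest of Atp5g2. Atp5g1 exceeded Atp5g2 by 0.72 ± 0.10 on the log2 scale (1.65-fold) and Atp5g3 by 1.81 ± 0.17 (3.50-fold), and Atp5g2 exceeded Atp5g3 by 1.09 ± 0.16 (2.13-fold), each with an exact adjusted p = 0.0234 and in 7 of 7 libraries. The OCR of Atp5g2 peaked 1249 bp inside the gene record, close to the RefSeq start that carries its NRF1 match, and Atp5g3 is the gene with the ERR match. With the summit required in the window, Atp5g2 had an OCR in 0 of 7 libraries, so that its value and its 2 tested differences rest on a peak whose summit is outside the window. Those 2 pairs could not be tested with that setting, nor with a window of 500 bp.

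**Figure D3:**
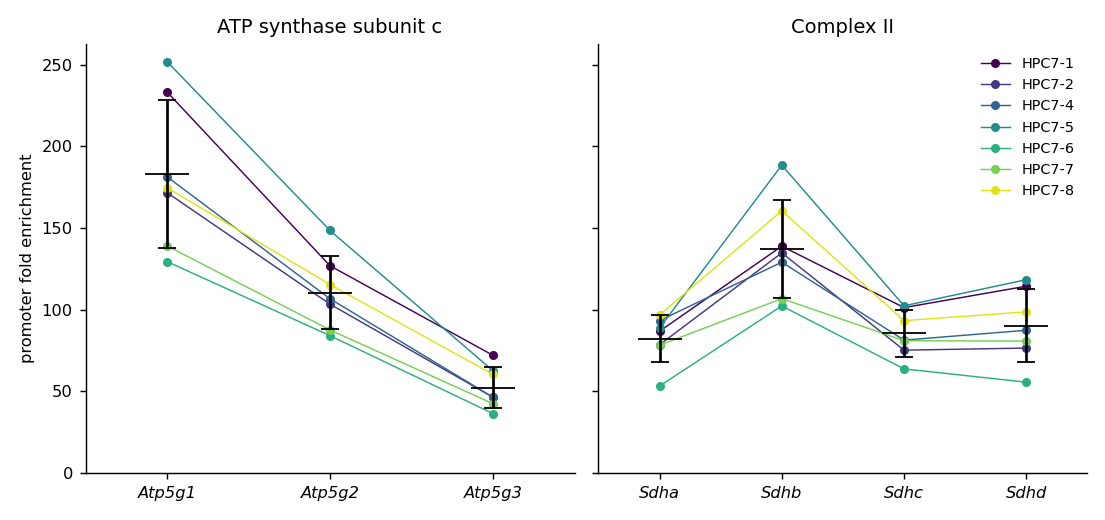
Promoter fold enrichment of the ATP synthase subunit c genes (left) and the complex II genes (right). Each coloured line is 1 of 7 libraries and black bars are means with SD. Every line falls from Atp5g1 to Atp5g3, and Sdhb is the highest complex II gene on every line.

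All 8 complex III genes were open in all 7 libraries, with means of 55.3 to 119. Uqcrq, a small subunit that binds cytochrome b (chr11:53427922-53430831), ranged from 102 through 116 to 136 and stands 192 bp from the divergent start of Gdf9. Uqcrc2, one of the large core proteins, ranged from 51.9 through 75.4 to 104, and the small subunit Uqcr10 from 51.2 through 80.2 to 93.6. Uqcrc1, the other core protein, was the lowest with 44.1 through 52.7 to 70.5, followed by the small subunit Uqcr11 with 42.5 through 56.7 to 78.1. The ranges of the last 4 genes overlapped one another, and that of Uqcrq overlapped only that of Uqcrc2 among them. Uqcrfs1, the Rieske iron-sulfur protein that passes electrons to cytochrome c1, had a mean of 77.9 ± 13.2.

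Complex IV was the one complex with more than 1 record without a steady promoter OCR. Of 18 genes, 12 were open in all 7 libraries, 2 in some and 4 in none, which put the share at 70.6% ± 4.20 (SD, n = 7) and the median percentile at 57.0 ± 0.861. Among the open genes, Cox8a (chr19:7215153-7217616) ranged from 113 through 148 to 210, Cox5b (chr1:36691449-36693681), a subunit on the matrix side, from 84.2 through 120 to 134, and Cox4i1 (chr8:120668222-120674207), the broad form of the regulatory subunit 4, from 80.7 through 99.2 to 126. The values of Cox8a and Cox4i1 overlapped over all libraries and were ordered the same way within each. Cox6c was the lowest, with 15.6 through 20.2 to 31.4. Cox7a2l, which joins complexes III and IV into supercomplexes (chr17:83501918-83517330), had 16.4 through 19.8 to 36.7 at the start of its record but a mean of 119 ± 9.73 at the start of any of its transcripts.

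Most of the tissue-restricted forms had little or no OCR where the broad forms were open, but 2 did not follow this. The pairs were chosen for this pattern, so their values are a description without a test. No promoter OCR was found in any library for Cox6a2 and Cox8b, the forms of heart and skeletal muscle, or for Cox7b2 and Cox8c, forms of testis. The broad forms Cox6a1, Cox8a and Cox7b had means of 86.3 ± 20.9, 155 ± 33.9 and 25.3 ± 4.73 (SD, n = 7). Cox6b2, a testis form, had an OCR in HPC7-1 alone, at 2.71, where Cox6b1 had 43.0, and none in any library when all lists were held to an equal number of peaks. Cox4i2, the form of lung that is induced by low oxygen, had a weak OCR in 4 libraries, of 4.49 (HPC7-1), 3.08 (HPC7-4), 3.65 (HPC7-5) and 4.95 (HPC7-7). In those libraries Cox4i1 was 16.3-fold to 32.6-fold higher. The summits of these Cox4i2 peaks lay 1064 to 1143 bp inside the gene, outside the window, and the 1 nearer peak (HPC7-1, summit at 328 bp) had 2.43. Just outside the window were a Cox4i2 peak of 3.79 at 1004 bp in HPC7-8 and a Cox6b2 peak of 3.06 at 1007 bp in HPC7-7.

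Cox7a1, the heart and skeletal muscle form of subunit 7a (chr7:30184144-30186078), was open in all 7 libraries, with 30.7 (HPC7-6) through 49.8 to 60.2 (HPC7-1). Its summit lay 74 bp upstream of its start, in an OCR with a median width of 903 bp, and the nearest other coding start, Zfp146, was 14394 bp away. The broad form Cox7a2 ranged from 66.8 through 104 to 122 and was higher in 7 of 7 libraries, by 1.72-fold to 2.24-fold. Ndufa4l2, the form of Ndufa4 induced by low oxygen (chr10:127514967-127517154), also had an OCR over its window in all 7 libraries, with 32.5 through 46.1 to 58.8, and Ndufa4 was 1.60-fold to 2.39-fold higher. The OCR of Ndufa4l2, however, peaked 1948 bp upstream of the start, in a peak with a median width of 2251 bp. With the summit required in the window, Ndufa4l2 kept a peak in 6 libraries, at a mean of 3.40 over the 7, and Cox7a1 was still open in all 7.

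**Figure D4:**
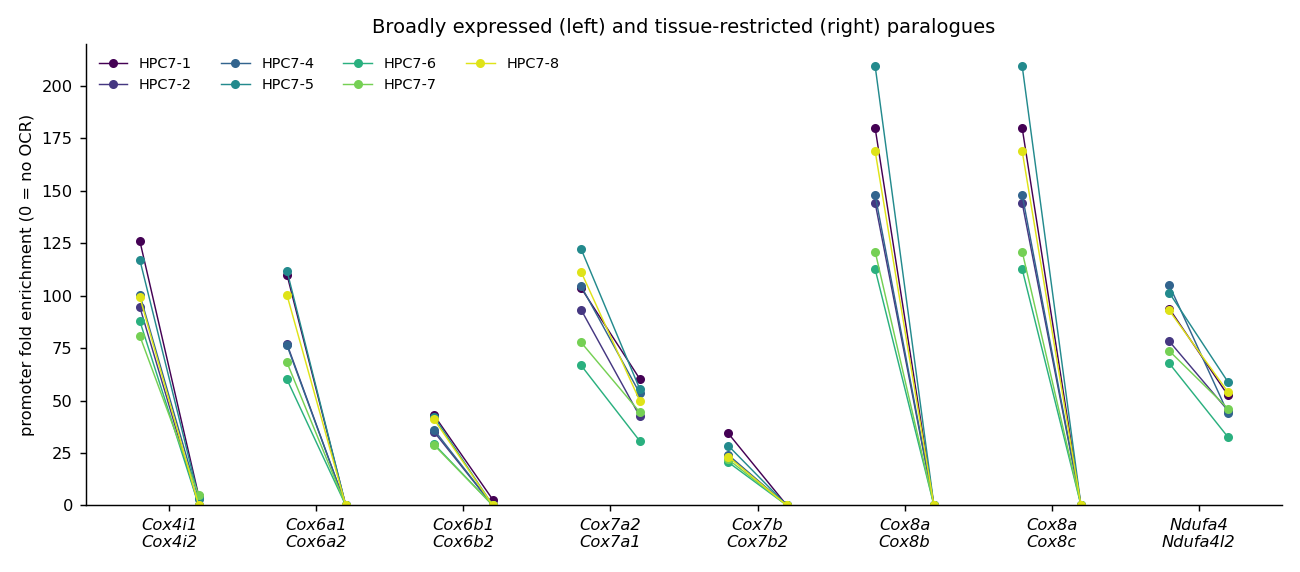
Promoter fold enrichment of 8 pairs of paralogues, the broadly expressed gene on the left and the tissue-restricted gene on the right of each pair, with 1 line for each of 7 libraries and 0 where there was no OCR. All lines fall, to 0 or close to 0 in 6 pairs and to between 30.7 and 60.2 for Cox7a1 and Ndufa4l2.

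The nearest OCRs of the 4 Cox genes without one lay over 1 kb from their starts. The closest to Cox6a2 lay 1751 to 1832 bp upstream of its start, inside the gene Itgad (an integrin subunit of leukocytes), in every library, and its fold enrichment averaged 7.43 ± 1.88. That of Cox8b lay 2377 to 2661 bp upstream and outside any coding gene, with 18.9 ± 5.23. Within Cox7b2 a peak 2214 to 2368 bp downstream of the start was found in 6 libraries, between 3.14 and 7.14, but not in HPC7-5. The nearest peak to Cox8c was 3444 to 13222 bp away. The second record of Atp5o (ENSMUSG00000116933.1, chr16:91684398-91926982) is 242.6 kb long and starts inside the span of the first (chr16:91925214-91931687), and its nearest OCR began 2333 to 4109 bp from its start. This was the promoter OCR of the first record in 5 libraries, at 59.4 to 86.7, and a weak downstream peak in HPC7-1 (2.39) and HPC7-6 (2.97). The first record, for the stalk subunit of ATP synthase that gives oligomycin sensitivity, was open in all 7 libraries at 66.4 ± 13.1.

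The mean fold enrichments of the 17 open records of complex V ran from 26.9 to 183. The 4 peripheral stalk genes (Atp5f1, Atp5h, Atp5j and Atp5o) had a median percentile of 85.0 ± 2.34, and the 5 genes of the catalytic head (Atp5a1, Atp5b, Atp5c1, Atp5d and Atp5e) had 63.7 ± 0.826 (SD, n = 7). At the start of any transcript the values were 83.9 ± 2.52 and 80.3 ± 2.39, so that most of this gap depends on the start used. Of the stalk genes, Atp5f1, Atp5h and Atp5j had summits nearer another gene's start than their own. Atp5j, coupling factor 6 of the stalk (chr16:84827866-84835625), ranged from 108 through 162 to 204. It starts 700 bp from Gabpa, a gene of the ETS factor GABP, and both share 1 OCR whose summit, 655 bp inside Atp5j, is nearer Gabpa. Atp5b, the catalytic beta subunit (chr10:128083273-128090391), ranged from 112 through 127 to 170. The lowest were Atp5l, subunit g of the membrane part, with 29.1 through 35.4 to 55.4, and Atp5d, the delta subunit of the head (chr10:80138632-80145818), with 21.6 through 26.3 to 33.4.

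Some low values depend on the start that the gene record gives. At the start of any transcript, Cox7a2l rose from 23.7 to 119 ± 9.73 and Atp5d from 26.9 to 110 ± 24.8, while Ndufa9, Ndufs4, Cox6c and Atp5l had the same values at all starts. Summits of the 87 open members lay at a median distance of 78.9 ± 8.05 bp from the start, and those of all open genes at 101 ± 3.15 bp (SD, n = 7). For 69 members (79.3%) the median summit was within 200 bp, as for 71.3% of all open genes, and 42 members (48.3%) peaked upstream of the start, as did 49.1% of all. Beyond 1 kb were 3 members (3.45%, against 6.23% of all), Ndufa4l2, Cox7a2l and Atp5g2.

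**Figure D5:**
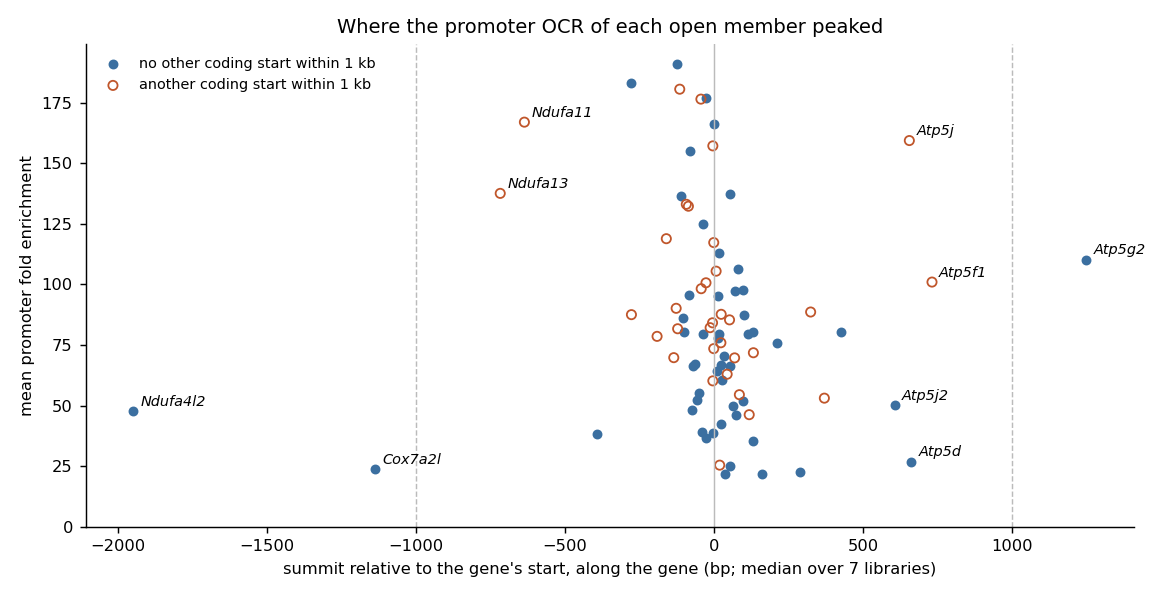
Mean promoter fold enrichment against the position of the summit relative to the gene's start (bp, upstream negative, median of 7 libraries) for the members open in all libraries (1 of 87 is not drawn). Filled points have no other coding start within 1 kb and open points have one. Most points stand within 200 bp of the start, and the labelled genes peaked more than 500 bp away.

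Respiratory chain genes often stood beside another gene. A further protein-coding start lay within 1 kb of 35 members (37.2%), against 12.5% of all genes, and for 23 members (24.5%) it was divergent and upstream, against 6.79% of all genes. All 35 were open in all 7 libraries, with a median percentile of 76.8 ± 0.762, and so were 52 of the 59 members that stand alone, with 68.1 ± 1.09 (SD, n = 7). The corresponding shares over all genes were 88.3% and 46.4%. For 13 of 87 open members the summit was nearer the other gene's start than the member's own, among them Sdhd beside Timm8b, Ndufs6 beside Mrpl36, Uqcrh beside Lrrc41 and Atp5j beside Gabpa. Their fold enrichment cannot be told apart from that of the neighbour. This count was not made over all open genes, so it is not read as a trait of the members.

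The level of a promoter also differed by chromosome. The 90th percentile of promoter fold enrichment was 1.38 times that of the median autosome on chromosome 1, 1.47 times on chromosome 8, 1.38 times on chromosome 17 and 0.575 times on chromosome X. Of the members in the top 25%, 8 are on chromosomes 1, 8 and 17, which hold 16 open members. The other autosomes hold 19 of them among 68 open members. When each member was ranked among the genes of its own chromosome, 23 of the 27 stayed at or above percentile 75 in all 7 libraries, and 29 members in all did. The same counts over all genes were not made. Ndufaf2 and Cox5b, with mean percentiles of 75.3 and 75.8 on their own chromosomes, fell below 75 in at least 1 library. Cox4i1 went from 81.1 to 66.0 and Ndufb7 from 82.5 to 67.5, both on chromosome 8, and Ndufv2 on chromosome 17 went from 95.7 to 89.0. The 3 members on chromosome X, Ndufa1, Ndufb11 and Cox7b, rose by 17.1 percentile points on average. The part of the chromosome in these levels was not tested.

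Inside the gene records, away from the promoter, OCRs were found in all 7 libraries for 33 members (35.1%), against 47.7% of all protein-coding nuclear genes, and in none for 32 (34%), against 36% of all. The members' records were shorter, with a median length of 7.42 kb against 17.4 kb, and the part of length in these shares was not tested. Leaving aside the second Atp5o record, with 43.1 ± 7.22 over its length, the most were in Ndufaf2, a gene of 155.9 kb, with 15.0 ± 2.52 (SD, n = 7). Sdhb had 5.57 ± 0.535 in 17.99 kb and Ndufa12 5.00 ± 0.577 in 22.7 kb. Ndufs4, one of the weakest promoters, had 4.29 ± 0.756, the strongest with a mean fold enrichment of 27.9 ± 3.63.

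Most genes of the carriers and regulators around the chain were open as well. Cycs, the cytochrome c of somatic cells, had a promoter fold enrichment of 116 ± 28.7 and Cyct, its testis form, had no OCR in any library. Of 10 listed regulators of nuclear or mitochondrial genes, 9 were open in all 7 libraries. Esrra, the gene of ERR-alpha, had 219 ± 37.8 and Tfb2m 189 ± 41.7. Tfam, which packs mitochondrial DNA, had 142 ± 27.8 and Nrf1 92.7 ± 19.5. Ppargc1a, a coactivator of mitochondrial biogenesis prominent in muscle and brown fat, had no promoter OCR, and its paralogue Ppargc1b had 72.7 ± 13.8.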

How the data were processed

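Bulk ATAC-seq of HPC7 cells was measured in 7 libraries of 1 condition. According to the submitters' processing notes and the methods of the study, the authors aligned reads to mm10 (BWA) and called the peaks of single libraries (MACS2). Versions and options are not given in the sources used here. Each deposited peak has a fold enrichment, besides a score, a summit offset and p and q as −log10 values. The fold enrichment is the ratio of summit reads to background, with 1 added to each. Trimming before alignment used Cutadapt. Within a library all fold enrichments were whole multiples of 1 step (largest deviation 0.00124 of a step), which gave the background reads, and the Poisson −log10 p recomputed from it differed from the deposited one by a median of at most 1.53e-05.

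Gene starts came from GENCODE M21, and a peak counted at a promoter when it overlapped 1 kb on either side by at least 1 bp. Percentiles were taken over 21938 protein-coding nuclear genes. Pairs were tested with the exact sign-flip permutation test (128 sign patterns). P-values measure the spread between these 7 libraries, which came from independent cultures of 1 line.

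Genes were named by rule: all pairs of paralogues, the Atp5g and Sdh genes, the 3 highest and 2 lowest open members of each group (Nduf subunits, Ndufaf, Uqcr, Cox, Atp5), and members without an OCR in at least 1 library. Others were named after their values were seen. In all totals, 1 member is counted that is not reported by itself here, nor is 1 neighbouring gene. Members, lists and tests were chosen with earlier results of these data known. Alternatives were windows of 500 bp and 3 kb, any transcript start, a −log10 q of at least 5, an equal number of peaks (84593), the summit in the window, −log10 p as intensity, percentiles among all peaks, and each library left out in turn. Scripts ran in Python 3.11.15 (scipy 1.17.1, pandas 2.3.3, numpy 2.4.6, matplotlib 3.10.9), and the overlap, step and permutation functions were tested on simulated data, the overlaps against bedtools 2.31.1.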

Additional observations from a re-analysis of the deposited data

Results flagged for a closer look

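Each of the 87 open members was examined for a library that stood apart, on log2 fold enrichment relative to the median open promoter of the library, with Dixon's 95% critical value for 7 samples, which chance passes in about 1 in 20 genes. Only 2 of 87 passed it, fewer than that rate. Ndufb10, a complex I subunit of the membrane arm, was high in HPC7-1, with a gap of 0.727 of its range. Its fold enrichment was 184 there and 56.8 to 107.7 in the other libraries. The summit of that peak lay 4447 bp from the start in a peak 6877 bp wide, whereas in the other libraries it lay 79 to 98 bp from the start in peaks of up to 2965 bp. Ndufb6, another subunit of that arm, was low in HPC7-5, with a gap of 0.626. It had 70.8 there, or -0.39 on the relative log2 scale, and -0.22 to -0.12 elsewhere.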

How the results depend on the processing

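Of 255 values recomputed for 19 results under 16 settings, 247 kept their direction and their side of the threshold or moved by less than the limit set for them, and 8 moved. All 133 values with a library left out in turn were among the former. The mean share of members with a promoter OCR was 91.5% with a window of 500 bp, 97.4% with 3 kb and 90.6% with the summit in the window. With 3 kb, the members without an OCR in any library fell from 5 to 1 (Cox8c). The median percentile was 71.3 at any transcript start, 73.3 with the summit in the window, 92.8 among all peaks of the library and 70.5 among genes of the same chromosome, a setting added after the data were seen. The cause of these shifts was not tested. With a window of 500 bp or the summit in the window Atp5g2 lacked an OCR in at least 1 library, so its 2 pairs could not be tested there. In these settings members open in all 7 libraries were 85 and 83. No paired analysis was possible because all libraries belong to 1 group, so there are no groups to pair by replicate number (the gene pairs were compared within libraries). With an equal number of peaks in all lists the members without an OCR in any library were 6, as the OCR of Cox6b2 in HPC7-1 was lost, while Cox4i2 kept one in at least 1 library.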
